A study of Mus musculus with 10 samples.

Results

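The mitosis and spindle module is a set of 53 genes whose products enter, run and end cell division, from the cyclins and Cdk1 to the proteins that cut the dividing cell apart. Members were chosen by symbol, as the rows of the tables whose gene name is on the list, and all 53 were listed in each of the 10 libraries, of 18024 endogenous genes listed over all of them. Every member also passed the filters on low values in each of the 6 gene-level comparisons below. The libraries were made with CEL-seq2, which primes on the poly(A) tail and tags every molecule with a random barcode, from small-intestinal crypts of C57Bl/6 mice. 7 libraries hold sorted single cells and 3 hold doublets or triplets of cells picked by mouth pipette after a mild dissociation. No treatment, genotype, sex or age is given in the labels, nor the gate of the sort. Titles carry the code GK5a on sorted replicates 1 to 5, GK5b on sorted replicates 6 and 7, and JC on picked replicates 1 to 3. The GK5a titles also carry M2, replicate 6 a G and replicate 7 an L, with no meaning given, so the GK5b plates may differ in more than replicate. Picked against sorted is therefore also a comparison between codes, and between sexes, since Xist, made from the inactive X of female cells, was at 115 to 155 CPM (transcripts per 1000000) in the picked and at most 0.978 CPM in the sorted libraries, and the Y-linked Ddx3y at 0 and at 60.7 to 100.2 CPM.

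A dividing cell copies its DNA first and only afterwards builds a spindle, so most of these genes are transcribed late, in G2 and mitosis, and are silent in cells that have left the cycle. Cyclins A2, B1 and B2 drive Cdk1 into mitosis, the condensin complex and topoisomerase II shape the chromosomes, kinesins and kinetochore proteins move them, and Cdc20 with Ube2c lets the anaphase-promoting complex end the phase. In the crypt, Lgr5-positive stem cells at the base and the progenitors above them divide, Atoh1 marks the secretory lineage, and mature goblet cells and absorptive enterocytes do not divide.

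Promoters of such genes are known for CCAAT boxes, bound by NF-Y, and for the cell cycle homology region, TTTGAA, through which the DREAM and B-Myb complexes act. The 250 bases before the annotated start are shown for 4 members picked because they carry both motifs. Top2a and Mki67 had a larger part of the module in wells rich in replication transcripts, and Ccnb2 and Cdc20 a smaller part. Whether the motifs bear on how members varied from well to well was not tested. Sequences are from RefSeq on GRCm38.p6, read 5′ to 3′ along the gene, and capitals mark CCAAT or TTTGAA on either strand (ATTGG and TTCAAA on the other).
Top2a, chr11:99024190-99024439, minus strand: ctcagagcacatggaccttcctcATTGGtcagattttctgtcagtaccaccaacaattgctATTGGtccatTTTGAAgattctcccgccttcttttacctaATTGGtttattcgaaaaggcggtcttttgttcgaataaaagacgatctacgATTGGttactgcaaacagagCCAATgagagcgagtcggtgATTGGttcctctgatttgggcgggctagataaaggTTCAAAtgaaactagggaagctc
Mki67, chr7:135716380-135716629, minus strand: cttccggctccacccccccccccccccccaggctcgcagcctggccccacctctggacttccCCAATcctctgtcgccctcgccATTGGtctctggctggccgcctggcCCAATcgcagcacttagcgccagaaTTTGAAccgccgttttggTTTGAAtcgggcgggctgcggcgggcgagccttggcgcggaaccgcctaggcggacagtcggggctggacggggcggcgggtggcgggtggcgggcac
Ccnb2, chr9:70421555-70421804, minus strand: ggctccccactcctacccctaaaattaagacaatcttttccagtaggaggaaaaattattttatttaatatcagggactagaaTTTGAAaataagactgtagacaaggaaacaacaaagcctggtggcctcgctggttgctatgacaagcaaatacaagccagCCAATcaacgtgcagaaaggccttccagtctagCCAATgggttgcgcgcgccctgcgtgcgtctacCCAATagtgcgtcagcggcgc
Cdc20, chr4:118437344-118437593, minus strand: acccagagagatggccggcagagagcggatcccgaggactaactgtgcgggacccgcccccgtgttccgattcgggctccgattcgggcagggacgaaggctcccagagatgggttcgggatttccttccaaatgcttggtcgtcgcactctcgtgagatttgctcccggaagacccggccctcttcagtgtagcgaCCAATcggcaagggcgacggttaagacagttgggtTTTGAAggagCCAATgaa
These windows lie just upstream of genes that GENCODE places, on GRCm38, at chr11:98992943-99024189 (Top2a), chr7:135689784-135716361 (Mki67), chr9:70407692-70421547 (Ccnb2) and chr4:118432901-118437352 (Cdc20), all on the minus strand and all protein coding. The Cdc20 window runs into the first bases of the gene as GENCODE draws it. RefSeq promoters were matched for 45 of the 53 members. Of these, 34 (75.6%) held CCAAT in the 250 bases, against 37.5% of all 27025 genes with a promoter in the table. TTTGAA was found for 19 members (42.2%) against 18.3% of all genes, and both motifs for 17 (37.8%) against 6.45%. Another motif, TTTAAA, which reads the same on both strands, was found for 6 members (13.3%) and in 13.7% of all genes. None of the 3 motifs contains another, and a CCAAT match can overlap a match of its reverse. A match is a match of letters in this window and says nothing of binding.

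Wells with at least 1000 endogenous transcripts were used, 1615 in the sorted libraries (189 to 264 each) and 501 in the picked libraries (122 to 200). Their transcripts summed to between 1022859 and 4832581 per sorted library and between 821829 and 1232614 per picked library. Epcam, a membrane protein of gut epithelium, was at 874 to 1533 CPM in sorted and 460 to 674 CPM in picked libraries. Vil1, the microvillus protein villin, was at 414 to 819 CPM and 286 to 453 CPM, so both groups held the RNA of gut epithelium. Sorted replicate 6 stood apart in the module, and several results that rest on it are given without it as well.

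The module took a small part of the RNA, and that part was uneven between wells. It made up 0.402% (lowest), 0.483% (median) and 0.761% (highest) of the transcripts of the 7 sorted libraries, or 0.512% ± 0.118 (SD, n = 7), and 0.353%, 0.472% and 0.526% in the picked libraries. The highest value was that of sorted replicate 6, and the other sorted libraries did not pass 0.538%. Picked replicate 1, at 0.353%, lay below all sorted libraries, and the other picked libraries lay inside their range. Within the sorted libraries most wells were either low or high. Between 33.0% and 57.0% of the wells of a sorted library had under 0.1% of their transcripts in the module, between 12.9% and 29.9% had at least 1%, and the single highest wells reached 1.96% to 2.62%. The limits of 0.1%, 0.5% and 1% were set after the distribution had been seen.

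Picked wells were spread differently over the same range. The median well of the 3 picked libraries held 0.364%, 0.336% and 0.319% in the module, and all 3 lay above the 7 sorted libraries, whose median wells held 0.0724% to 0.216%. Both ends were thinner in picked libraries: 20.5% to 25.7% of wells were under 0.1% and 4.47% to 10.0% were at 1% or more. With every well thinned to 2000 transcripts, which leaves out the shallower wells (1434 of the sorted and 384 of the picked wells stayed), 7.48% to 14.7% of picked and 13.7% to 32.4% of sorted wells were at 1% or more. The 2 ranges then overlapped. A picked well pools the RNA of several cells, so these are shares of wells and not of cells.

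**Figure D1:**
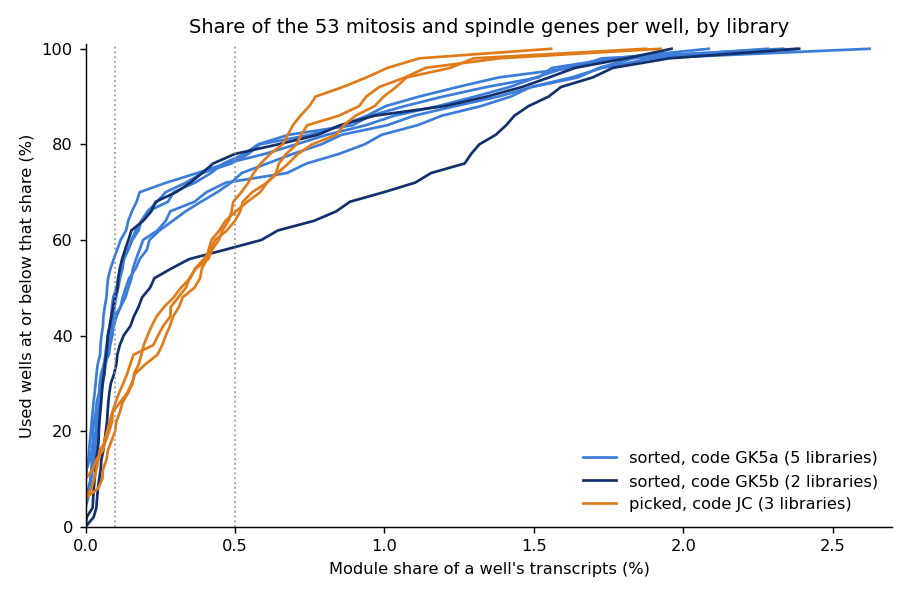
Cumulative share of used wells (y axis, %) against the module's share of a well's transcripts (x axis, %), 1 line per library, with dotted lines at 0.1% and 0.5%. Between 33.0% and 57.0% of sorted wells lie below 0.1%, against 20.5% to 25.7% of picked wells, and sorted replicate 6 has the most wells above 0.5% (41.7%).

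The members were unequal in abundance. CEL-seq2 counts 1 barcode per molecule at its 3′ end, so counts were compared between genes without division by length. The 10 members with the most transcripts held 46.9% of the module in the sorted libraries. They were Ube2c, the ubiquitin-conjugating enzyme of the anaphase-promoting complex (8885 transcripts over the 10 libraries), the proliferation marker Mki67 (7719), the DNA-untangling enzyme Top2a (7653), Cks2, a small subunit of Cdk1 (5049), the condensin subunit Smc4 (4922), cyclin A2 gene Ccna2 (4752), Cdk1 (4436), the centromeric histone Cenpa (4405), Birc5 of the chromosomal passenger complex (3698) and cyclin B2 gene Ccnb2 (3551). At the other end 10 members had under 1000 transcripts. The lowest was Kif20a, a kinesin of the cleavage furrow, with 288.

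The members rose and fell together. Each of the 1378 pairs had a positive Spearman correlation across the wells of the sorted libraries (mean over 7 libraries), from 0.24 to 0.69 with a median of 0.51. The strongest pairs were Ccna2 with Birc5 (0.69), Ccna2 with Mki67 (0.69), Ccna2 with Racgap1 (0.69), Ccnb2 with Cenpa (0.67) and Ccna2 with Cdca3 (0.66). Racgap1 acts at the midzone during cytokinesis, and Cdca3 is a trigger of mitotic entry. Against the summed share of the other 52 members, Ccna2 stood highest at 0.73, followed by Mki67 at 0.70 and Birc5 at 0.66. Kif20a (0.37), Arhgap11a, grouped here with the cytokinesis genes (0.39), and the condensin subunit Ncapg (0.43) stood lowest. Kif20a and Ncapg were also the members with the fewest transcripts, while Arhgap11a, with 1186, was not. In wells under 0.1% of module, Arhgap11a was detected in 17.6% of wells and Ncapg in 0.942%. These are correlations over wells of shared libraries and shared depth, given as descriptions.

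Inside the wells with at least 0.5% of module, the members split by the company they kept. For each member its share of the module was correlated with the share of transcripts in a list of 55 replication genes (Pcna, the Mcm helicase and others, none of them members) within each sorted library. Top2a had the highest mean correlation, 0.51 (lowest 0.32, highest 0.74 over 7 libraries), followed by Aurkb, the kinase of the passenger complex (0.40), Pbk, a mitotic kinase (0.39), the condensin subunits Ncaph (0.34) and Smc2 (0.33), and the kinesin Kif15 (0.33). In all, 11 members were above 0 in 7 of 7 libraries, among them Mki67 (0.26) and Cdk1 (0.22). At the other end stood Cenpa at -0.62 (lowest -0.71, highest -0.49), Ccnb2 (-0.42), Ccnb1 (-0.41), Ube2c (-0.38), Cdc20 (-0.37) and Cenpf, a late kinetochore protein (-0.37). With Knstrn, Cdca3 and Cenpe these made 9 members below 0 in 7 of 7 libraries, and the remaining 33 had mixed signs. Thus wells with much replication RNA and wells with little differed in which members filled the module. Shares of the module sum to a whole, so a gain of 1 member is a loss for others.

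**Figure D2:**
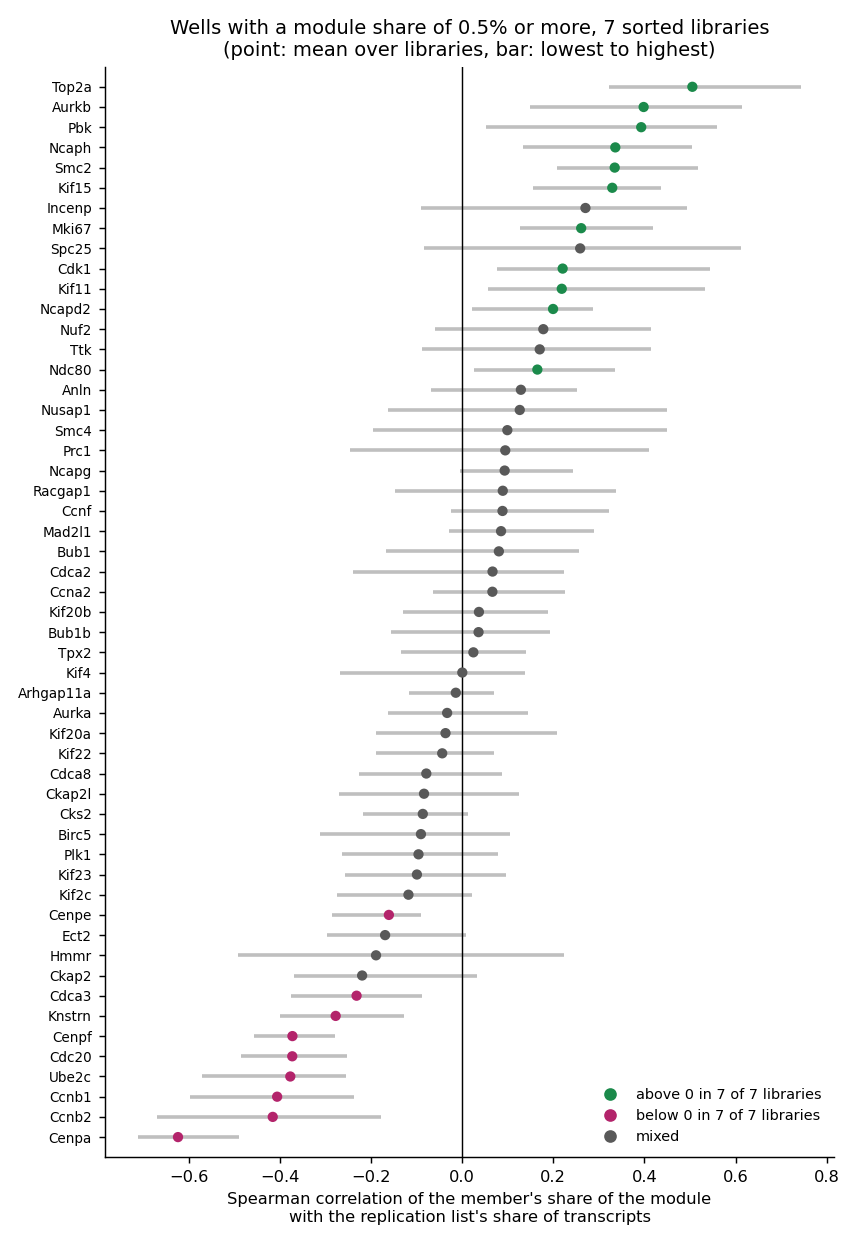
Spearman correlation (x axis) of each member's share of the module with the replication list's share of transcripts, in sorted wells with at least 0.5% of module; points are means over 7 libraries and bars run from the lowest to the highest library. Top2a is at the top at 0.51 and Cenpa at the bottom at -0.62, and the bars of both stay on 1 side of 0.

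Wells with more RNA had more of it in the module. Within each sorted library, wells were ranked and cut into 4 equal parts by their transcripts outside the module. The mean well share was 0.274% ± 0.0792 (SD, n = 7) in the lowest part, 0.353% ± 0.0861 and 0.420% ± 0.178 in the middle parts, and 0.579% ± 0.145 in the highest. The highest part exceeded the lowest in 7 of 7 libraries, by 0.305 percentage points ± 0.165, from 0.101 to 0.556. The difference was 0.299 ± 0.160 with every well thinned to 2000 transcripts; it was 0.358 ± 0.177 when transcripts were counted per molecule of the spiked-in ERCC RNA. Across single wells the relation was loose, with Spearman correlations of 0.05 to 0.28 per library. In picked libraries the difference was 0.124 ± 0.172 (n = 3), above 0 in 2 of 3.

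Put the other way, sorted wells with at least 0.5% of module held 1.47 ± 0.270 times (SD, n = 7) the median transcripts of wells under 0.1%, and more in 7 of 7 libraries. The ratio was 1.37 ± 0.278 among goblet wells alone (7 of 7 libraries) and 1.5 ± 0.50 among Lgr5-positive wells (5 of 6). Over all used sorted wells, replication genes took a median of 0.377% ± 0.0449 of transcripts in the high wells and 0.0769% ± 0.0118 in the low ones. Among goblet wells alone these values were 0.320% ± 0.0674 and 0.0627% ± 0.0128 (n = 7). Among Lgr5-positive wells they were closer, 0.420% ± 0.200 and 0.282% ± 0.0736 (n = 6), and the order was reversed in sorted replicates 3 and 4. In the picked libraries, over all used wells, they were 0.294% ± 0.0475 and 0.0919% ± 0.0332 (n = 3).

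Wells were then classed by marker lists that hold no member: goblet or absorptive with at least 1% of transcripts in that list alone and 3 of its genes detected, Lgr5-positive or Atoh1-positive with that gene detected, the other not, and no list present, and unclassed with neither gene and no list. Small classes were kept apart: in the sorted libraries 42 enteroendocrine, 27 tuft, 16 immune and 11 Paneth wells, 56 with several lists, and 28 with Lgr5 and Atoh1 but no list. Detection of 1 transcript depends on depth, so an unclassed well can hold Lgr5 or Atoh1 RNA that was missed. In sorted libraries with at least 10 wells of a class, the module took 0.589% ± 0.0873 (SD, n = 6) of the transcripts of Lgr5-positive wells, from 0.484% to 0.744%. Goblet wells had 0.418% ± 0.124 (n = 7), from 0.274% to 0.655%, and unclassed wells 0.729% ± 0.263 (n = 7), where sorted replicate 6, with 17 such wells, had 1.29% and the others at most 0.801%. Without sorted replicate 6, which is not among the Lgr5-positive values, goblet wells had 0.378% ± 0.0716 (n = 6) and unclassed wells 0.636% ± 0.0987 (n = 6). Absorptive wells had 0.0316% ± 0.0117 (n = 5), from 0.0219% to 0.0472%, and lay below all values of these 3 classes. With the list limits halved the absorptive value was 0.211% ± 0.199 (n = 7). Atoh1-positive wells outside the lists reached 10 wells in 2 libraries only, at 1.18% in sorted replicate 6 and 0.586% in sorted replicate 7. The order of Lgr5-positive, unclassed and Atoh1-positive wells lies within the spread over libraries.

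**Figure D3:**
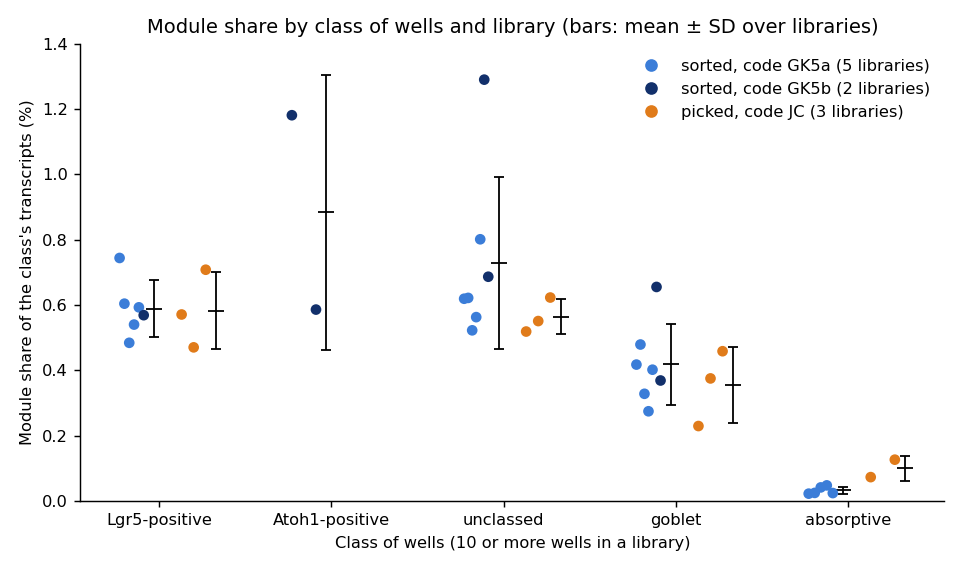
Module share of the summed transcripts of each class (y axis, %), 1 point per library with at least 10 such wells, coloured by code, and mean ± SD over libraries. Absorptive wells lie below 0.13% in all libraries shown, and the points above 1.1% are sorted replicate 6.

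The absorptive class was low well by well. None of its 151 sorted wells reached 0.5% of module, which with 0 wells allows a share of up to 1.99% (counting error only, wells pooled over libraries). Of 287 Lgr5-positive wells 34.5% did, of 505 goblet wells 24.2% and of 442 unclassed wells 38.5%. The median depth of these classes overlapped between libraries (3595 to 11112 transcripts for absorptive and 3128 to 17798 for Lgr5-positive wells). In the picked libraries the module took 0.583% ± 0.119 (n = 3) in Lgr5-positive, 0.564% ± 0.0534 (n = 3) in unclassed and 0.354% ± 0.116 (n = 3) in goblet wells. Lgr5-positive and unclassed wells overlapped between libraries, and the 3 goblet values, from 0.229% to 0.458%, lay below both. Absorptive wells had 0.0725% and 0.126% in the 2 libraries with at least 10 of them. None of the 40 picked absorptive wells was at 0.5% or more, which allows a share of up to 7.5%.

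Every one of the 53 members was lower in absorptive than in Lgr5-positive wells (limma on class sums with the library as block, Benjamini-Hochberg adjusted p under 0.05 over all genes tested). Of all 8544 genes tested there, 67.1% were called, 30% higher and 37.1% lower. Fitted log2 fold changes, on the log2(CPM + 10) scale, had a median of -2.58 over the members, against -0.12 over all genes (-0.32 with sum totals in place of the TMM scaling, under which all 53 stayed lower). In a class sum, fewer wells with the module and less of it per well cannot be told apart. The 53 members had 441 transcripts in 136 absorptive wells and 16827 in 278 Lgr5-positive wells. Members could pass the filter on low values through other classes alone. In the absorptive sums 6 of them had no transcript and 20 had 1 to 3, and for those at 0 only a lower value was possible.

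On the log2(CPM + 10) scale, which understates the change of low genes, Top2a, Ube2c, Ccna2, Cenpa and Cdk1 had the largest differences. Top2a was at 331.6 ± 90.5 scaled CPM (SD, n = 6) in Lgr5-positive and 12.1 ± 12.8 CPM (n = 5) in absorptive sums, with values of 226 to 451 CPM and 0 to 31.3 CPM that do not overlap. Its log2 fold change was -4.02 ± 0.18 (SE, adjusted p = 3.33e-19). Ube2c was at 389 ± 65.9 and 20.3 ± 15.1 CPM (log2 fold change -3.85 ± 0.24, adjusted p = 1.71e-15). Ccna2 was at 195 ± 13.9 and 5.46 ± 7.75 CPM (-3.84 ± 0.19, adjusted p = 1.08e-17). Cenpa was at 262 ± 92.5 and 15.8 ± 15.5 CPM (-3.62 ± 0.25, adjusted p = 4.10e-14), and Cdk1 at 210 ± 55.7 and 9.28 ± 4.51 CPM (-3.51 ± 0.15, adjusted p = 3.33e-19). Mki67 went from 286 ± 57.6 to 20.2 ± 13.5 CPM. Pooled over libraries, among members with more than 3 absorptive transcripts, Ccna2 (35.4-fold) and Top2a (33.4-fold) were lower by the most, and Mki67 was 15.7-fold lower. The smallest pooled difference was that of Arhgap11a, 3.39-fold, with 20 absorptive transcripts.

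Some members were at or near 0 there. Cdca2, Kif20a, Kif22, Kif2c, Ncapg and Ndc80 had no transcript in any absorptive sum, and, set against 3 counts summed over those libraries, they were at least 6.52-fold (Kif20a) to at least 15.7-fold (Kif22) lower. A further 20 members had 1 to 3 transcripts. Across all members, with the 6 at their bound, the median was 18.6-fold. Cks2 (48 transcripts, 35.7 ± 21.3 CPM) and Smc4 (46 transcripts, 36.8 ± 9.81 CPM) had the most transcripts in absorptive wells.

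In class sums, which average low and high wells, goblet wells held an intermediate level. The median goblet well had 0.0670% to 0.158% of module per sorted library, and 12.1% to 33.2% of goblet wells were at 0.5% or more. For Lgr5-positive wells, in libraries with at least 10, these ranges were 0.0882% to 0.379% and 26.3% to 42.1%. Of the 53 members, 22 were lower than in Lgr5-positive wells and none was higher (limma, adjusted p under 0.05). Of all genes tested 43.3% were called, 21.9% lower and 21.5% higher. The median log2 fold change was -0.36 over the members, against -0.05 over all genes. Below 0 were 50 of 53 members and 4567 of all 8544 genes. The count of members called lower fell to 2 without the library as block, and 5 members were lower with a pseudocount of 1 in place of 10. It was 13 without sorted replicate 1 and 13 without sorted replicate 7. With sum totals in place of the TMM scaling, which moved the median of all genes to -0.24, it was 41. Goblet sums exist for all 7 libraries and Lgr5-positive sums for 6, without sorted replicate 6. The entry genes had 6 of 10 lower, the chromosome structure genes 4 of 8, the kinesins 4 of 8, the checkpoint genes 2 of 4 and the cytokinesis genes 2 of 4. The spindle microtubule genes had 1 of 6, the passenger complex 1 of 4, the kinetochore genes 2 of 7, and Cdc20 and Ube2c did not pass.

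The 5 largest of these that were lower in each of the 6 libraries with both classes were Ncaph, Pbk, Cenpf, Ect2 and Anln. Ncaph was at 80.2 ± 21.3 CPM (SD, n = 6) in Lgr5-positive and 41.6 ± 19.5 CPM (n = 7) in goblet sums (log2 fold change -0.97 ± 0.20 SE, limma adjusted p = 0.000176). Pbk was at 85.7 ± 10.3 and 53.3 ± 31.8 CPM (-0.88 ± 0.19, limma adjusted p = 0.000334). Cenpf changed by -0.74 ± 0.20 (limma adjusted p = 0.00295), Ect2, which is needed for cytokinesis, by -0.62 ± 0.19 (limma adjusted p = 0.00827) and Anln, the ring scaffold anillin, by -0.59 ± 0.24 (limma adjusted p = 0.0491). The call of Anln was lost in 12 of 17 alternatives. Ncaph and Pbk kept theirs in 17 of 17.

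Mki67 had the same average in both classes, 290 ± 149 CPM (n = 7) in goblet and 286 ± 57.6 CPM (n = 6) in Lgr5-positive sums. Sorted replicate 6 set that goblet average: it had 609 CPM, and the others 174 to 316 CPM. Within each of the 6 libraries with both classes, Mki67 was lower in goblet wells, but the difference did not pass (-0.25 ± 0.16, limma adjusted p = 0.226). Top2a was lower in 6 of 6 libraries and passed (-0.47 ± 0.16, limma adjusted p = 0.0185), as did Ccnb1 (-0.73 ± 0.22, 5 of 6 libraries, limma adjusted p = 0.00654). Hmmr and Kif22, with log2 fold changes of 0.30 and 0.33, were above 0 without passing (limma adjusted p = 0.209 and 0.196).

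Over sorted wells of any class the module varied along the goblet list, and from 2% upwards its mean over libraries was lower in each further bin. From 1% to 2% of transcripts in the list it was uneven between libraries, at 0.509% ± 0.441 (SD over 4 libraries), from 0.0421% to 1.06%. Sorted wells with 2% to 4% of transcripts in the goblet list had 0.745% ± 0.318 (SD over 6 libraries) of module and those with 4% to 8% had 0.477% ± 0.231 (7 libraries). From 8% to 16% the module was at 0.225% ± 0.178, and from 16% up at 0.0504% ± 0.0207, with 2 of 112 wells at 0.5% or more. The lowest and highest of these bins did not overlap between libraries (0.477% to 1.36% against 0.0226% to 0.0877%). In picked wells the module did not fall from 2% to 8%: it was at 0.295% ± 0.122 (n = 3) from 1% to 2%, 0.312% ± 0.00822 (n = 3) from 2% to 4% and 0.507% ± 0.123 (n = 3) from 4% to 8%. From 8% to 16% it was at 0.317% ± 0.0415 (n = 2), without picked replicate 1, whose 4 wells had 0.0666%. From 16% up, picked replicates 1 to 3 held 4, 2 and 4 wells, at 0.0550%, 0.0634% and 0.191%, the lowest bin in each. None of these 10 wells reached 0.5% of module. Median depth of sorted wells was 12388 transcripts per well at 2% to 4% and 8104 from 16% up.

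Along the absorptive list the module ended early. Sorted wells under 0.25% of absorptive transcripts had 0.595% ± 0.107 (n = 7) of module, and those from 0.25% to 0.5% had 0.612% ± 0.130 (n = 7). From 0.5% to 1% it was 0.426% ± 0.394, where the 2 GK5b libraries were the highest. At 1% to 2% the share was 0.0598% ± 0.0223 (6 libraries), and at 4% or more it was 0.0234% ± 0.0053 (5 libraries). None of the 155 wells at 1% or more of the list had 0.5% of module. Picked wells had 0.579% ± 0.192 (n = 3) from 0.25% to 0.5% of the list, and 0 of 42 wells at 1% or more of the list reached 0.5% of module. The bins were chosen after the data had been seen.

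**Figure D4:**
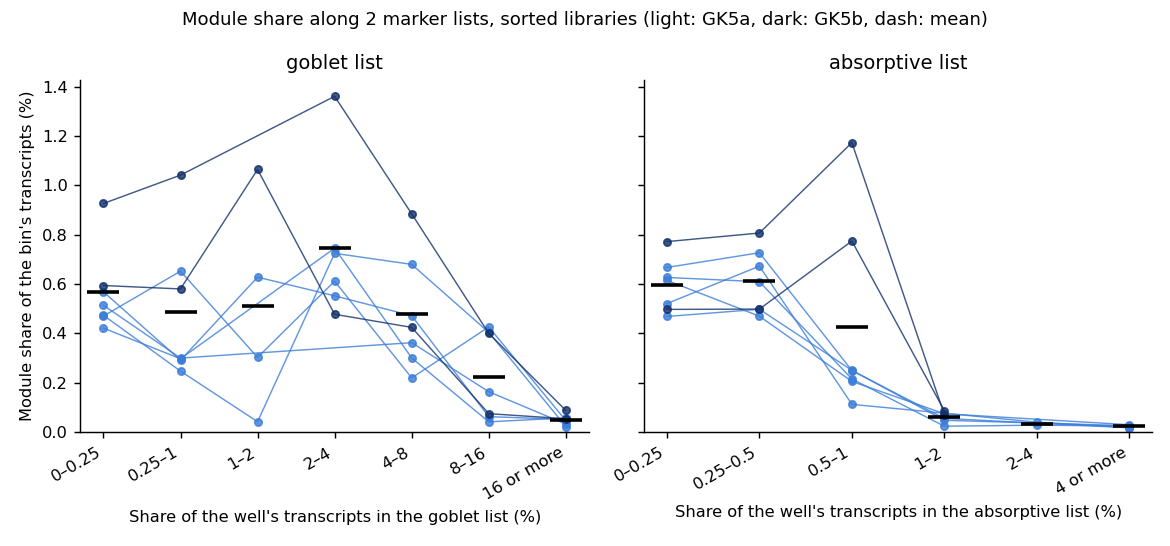
Module share (y axis, % of the bin's transcripts) in sorted wells binned by their share of transcripts in the goblet list (left) and the absorptive list (right), 1 line per library over bins of at least 5 wells, black dashes for means. The means in the left panel fall from 2% to 4% onwards, and the right panel drops at 1%, where all lines lie below 0.1%.

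For Lgr5 and Atoh1 themselves, detection was compared over all wells of a library. Wells with Lgr5, the receptor that marks crypt stem cells, had 0.604% ± 0.120 (SD, n = 7) of module. Those with Atoh1, the transcription factor of the secretory lineage, had 0.449% ± 0.142, and the first was higher in 7 of 7 sorted libraries. These sets share wells, since 69 sorted wells held both. Where 10 or more wells held both (3 libraries, sorted replicates 4, 6 and 7) the module took 0.826% ± 0.0464. These wells were deep, with medians of 14742.5, 26682 and 16329 transcripts, against 5564, 16427 and 13944 over all used wells of those libraries. Sorted replicates 1, 2 and 3, with 3, 6 and 6 such wells, had 0.136%, 0.647% and 0.191%. The part of depth was not tested. Of the 545 wells with Atoh1, 430 were goblet wells.

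Member by member, Atoh1-positive wells outside the lists gave no call against Lgr5-positive wells. At an unadjusted p under 0.05 there were 4 of 53 members and 1409 of all 8544 genes. The median log2 fold change of the members was -0.05, and 4.52% of all genes were called at the adjusted p (2.28% higher, 2.24% lower). Without the library as block the median was 0.42, again with no call. That fit holds 2 Atoh1-positive sums, and only sorted replicate 7 has both classes. With Atoh1-positive wells of any class, an alternative added after the data were seen, 17 of 53 members were lower and none higher (limma, adjusted p under 0.05), where 37% of all 8262 genes were called and 17% were lower. Pbk (-0.97 ± 0.21, limma adjusted p = 0.000534) and Ncaph (-0.95 ± 0.22, limma adjusted p = 0.000936) led, as they did for goblet wells, and most of these wells are goblet wells. Unclassed wells also gave no call, with a median log2 fold change of 0.10 and 36 of 53 members above 0. At an unadjusted p under 0.05 there were 5 of 53 members and 2235 of all 8544 genes. Of all 8544 genes there, 4202 were above 0, and 14.7% were called (8.1% higher, 6.61% lower).

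Other lists of cell cycle genes were tested in the same fits, where 37.1% of all genes were lower in absorptive wells, and 21.9% lower and 21.5% higher in goblet wells. Of 78 tested genes of a list of other mitotic genes (such as Foxm1, Bub3 and Aspm), 74 were lower in absorptive and 29 lower and 3 higher in goblet than in Lgr5-positive wells. Of 52 tested replication genes, 51 were lower in absorptive wells. In goblet wells 45 were lower, with a median log2 fold change of -0.86, and none was higher. The module's own median there was -0.36. The difference between these medians was not tested.

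Picked and sorted libraries differed in few members. In this comparison 4 of 53 members passed, 2 higher and 2 lower, while 30.2% of all 10429 genes did (14.1% higher, 16% lower). The median log2 fold change of the members was 0.08, on the log2(CPM + 1) scale, and -0.09 over all genes. With library totals in place of the TMM scaling, which moved the median of all genes to -0.40, 1 member was higher and 6 were lower. Incenp, the scaffold of the chromosomal passenger complex, was at 131, 108 and 125 scaled CPM in the picked libraries and at 39.3 (lowest), 63.4 (median) and 89.8 (highest) in the sorted ones. All picked libraries were above all sorted ones (log2 fold change 0.96 ± 0.21 SE, limma adjusted p = 0.0049). Bub1, a checkpoint kinase, was at 37.6, 62.3 and 64.1 against 15.1, 25.5 and 48.9 scaled CPM. Its groups overlapped at sorted replicate 6 (0.96 ± 0.30, limma adjusted p = 0.0288), and the call was lost in 8 of 19 alternatives.

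The 2 members that fell were Smc2 and Arhgap11a. Smc2, the condensin partner of Smc4, was at 54.8, 67.7 and 33.9 scaled CPM in picked and 79.1, 98.5 and 184 in sorted libraries, with no overlap (-1.06 ± 0.25, limma adjusted p = 0.0086). Arhgap11a was at 36.5, 32.5 and 41.5 against 44.0, 50.7 and 68.1, again without overlap (-0.49 ± 0.16, limma adjusted p = 0.0387), but its call was lost in 12 of 19 alternatives. All picked libraries lay above all sorted ones for 1 member, Incenp, and below for these 2. The same held for 13.1% and 12.5% of all genes tested. Ube2c, the most abundant member, was at 440, 443 and 699 scaled CPM in picked and 225, 322 and 542 in sorted libraries, without passing (0.65 ± 0.25, limma adjusted p = 0.0622). Cdk1 (180 ± 41.0 against 185 ± 51.8), Ccnb1 (99.0 ± 13.3 against 100.3 ± 24.98) and Cenpa (191 ± 14.9 against 198 ± 32.1) had nearly the same means in both groups.

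The count turned on 1 library. With sorted replicate 6 left out, 14 members passed as higher and 1 as lower, where 15.2% of all genes were higher and 16% lower. The 14, with log2 fold changes from 0.53 to 1.12, included Incenp, Bub1, Ckap2l, Kif11, Birc5, Ube2c, Ncapd2 and Mki67, and Smc2 was the lower one. The median of the members was then 0.22. With GK5a libraries alone as the sorted group 16 were higher and 1 lower, and with GK5b alone none was higher and 2 were lower. These fits hold 5 and 2 sorted libraries, and the share of all genes called in them is not given here. Their counts therefore cannot be read as a difference between codes. Paneth markers moved with the same comparison: 11 of 17 tested genes of that list were higher and none lower, the list took 1.12% to 12.1% of transcripts in picked and 0.410% to 1.66% in sorted libraries, and none of its genes was at 0 in either group. Of the stem cell list, 8 of 14 genes were lower and none higher (0.0628% to 0.106% against 0.127% to 0.223% of transcripts), again with no gene at 0. The part of either list in the members' values was not tested.

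Other genes of mitosis and replication are given against the 30.2% of all genes that were called here (14.1% higher, 16% lower). Of 83 tested genes of the other mitosis list, 15 were higher and 9 lower, and of 54 replication genes 10 were higher and 1 lower. No difference between these counts and that of the members was tested. Dlgap5, a spindle-assembly protein, had a mean of 140 ± 3.62 scaled CPM (SD, 3 picked libraries) and of 41.9 ± 14.5 in the 7 sorted ones (log2 fold change 1.78 ± 0.25, limma adjusted p = 0.000297). Spc24, a partner of the members Spc25, Ndc80 and Nuf2 in the Ndc80 complex, was at 228 ± 3.58 and 103 ± 24.3 (1.17 ± 0.17, limma adjusted p = 0.000411), while Spc25, Ndc80 and Nuf2 did not pass. Spag5 (1.05) and Ube2s (1.96) rose too, and Cdc27 fell by 1.01 on the log2 scale. Of the replication list, Pold1 (1.46), Pola2 (0.91), Cdc6 (0.99), Mcm5 (0.83) and Rfc4 (0.83) rose.

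**Figure D5:**
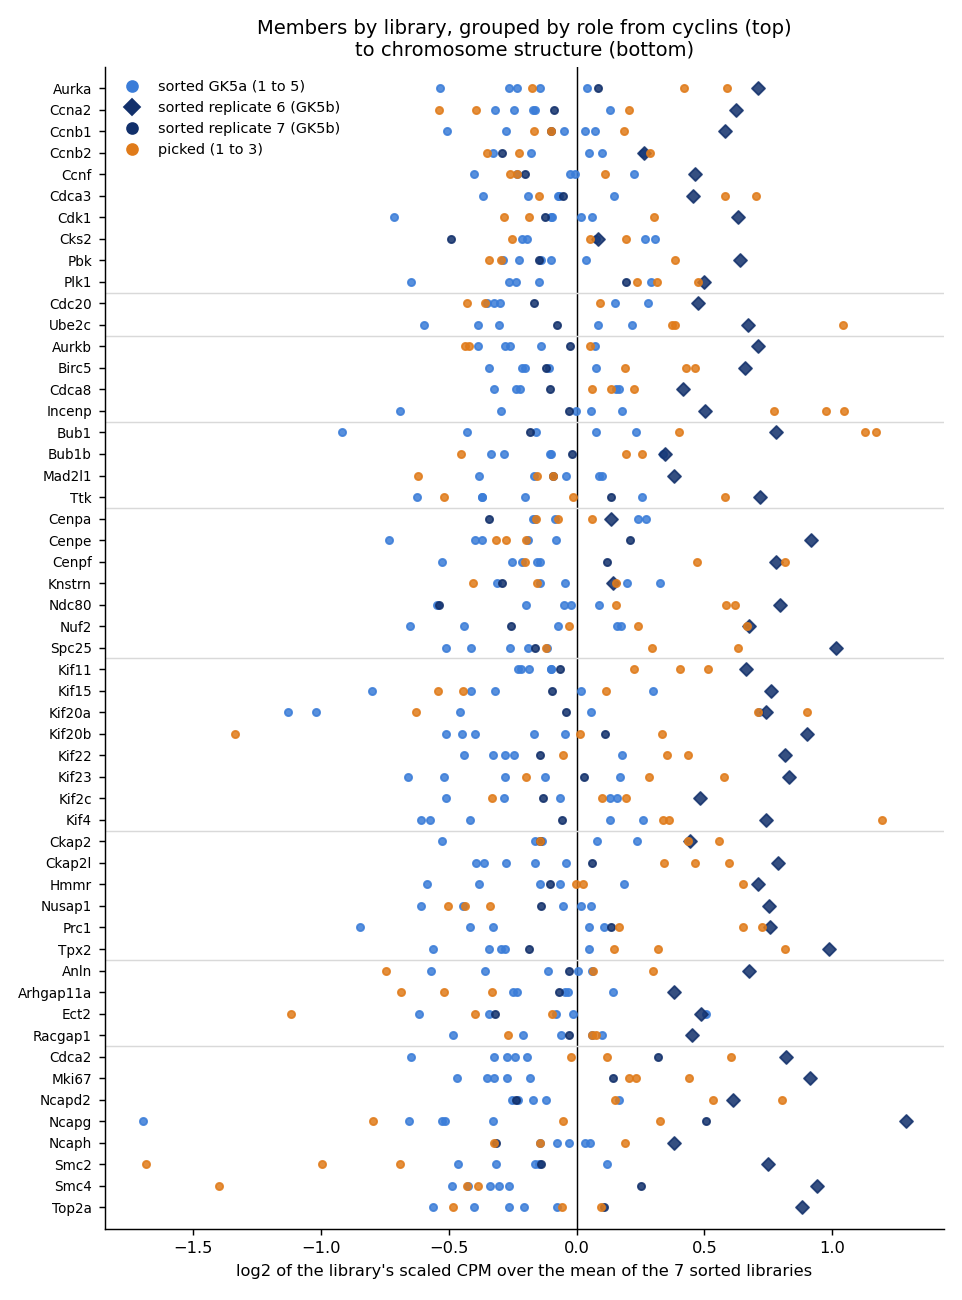
Scaled CPM of each member in each library as the log2 ratio to the mean of the 7 sorted libraries (x axis), members grouped by role (y axis), colours for codes, the diamond for sorted replicate 6. The diamond is the rightmost sorted point for 49 of 53 members, and the picked points of Incenp lie right of all sorted ones.

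Between the codes of the sorted libraries, 8 members were higher in GK5b than in GK5a and none was lower. Of all 10643 genes tested 12.9% were called, 6.3% higher and 6.61% lower. The 8 were Smc4, Ncapg, Mki67, Cdca2, Cenpe, Top2a, Cenpf and Kif20b, of which 5 belong to the 8 chromosome structure genes, and they were singled out because they passed. The median log2 fold change of the members was 0.48, and 0.00 over all genes. Scaled over the 10 libraries, Mki67 was at 556 CPM in sorted replicate 6 and 326 in sorted replicate 7, against 237 ± 17.1 (SD, n = 5) in GK5a. Top2a was at 563, 329 and 250 ± 31.5, and Smc4, the smallest adjusted p, at 380, 236 and 154 ± 9.62 (limma adjusted p = 0.0037). For these 3 genes, replicate 7 was also above the mean of GK5a, and replicate 6 was the highest sorted library for 49 of the 53 members. Without replicate 6 the median log2 fold change of the members was 0.05. That fit leaves 1 library in GK5b, which is assumed to vary like the GK5a libraries, so no count of members is given for it.

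The makeup of the wells moved with the code. Of the goblet list, 14 of 15 tested genes were higher in GK5b and none lower. The list took 4.31% and 6.78% of transcripts there against 1.18% to 1.99% in GK5a, with no list gene at 0 in either. Goblet wells were 196 of the 264 used wells of sorted replicate 6 and 107 of the 261 of replicate 7. Of the absorptive list, 21 of 22 genes were lower in GK5b (0.258% and 0.276% of transcripts against 0.629% to 1.33%). The part of either in the members' values was not tested. Within goblet wells alone the module was at 0.655% in replicate 6 and 0.369% in replicate 7, and at 0.274% to 0.479% in GK5a libraries, so replicate 6 was also the highest there and replicate 7 was not.

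Outside the module, the genes whose share followed it most closely from well to well were Hmgb2, a chromatin protein abundant in dividing cells, with a mean Spearman correlation of 0.76 over 7 sorted libraries (lowest 0.72, highest 0.82), the tubulin Tuba1b (0.71), the histone variant H2afz (0.71), Ptma (0.68), the nuclear lamina protein Tmpo (0.65), 2810417H13Rik (0.64), the tubulin Tubb5 (0.63), the microtubule regulator Stmn1 (0.62), Hmgb1 (0.62) and Nucks1 (0.62). They were taken from 6054 genes with at least 500 transcripts in the sorted libraries, and all wells share library and depth. None of the 10 is on the other mitosis or replication lists, whose summed shares correlated with the module at 0.77 to 0.91 and 0.51 to 0.75 per sorted library. In picked libraries the replication correlation was 0.24 to 0.41, below all sorted libraries, and that with the other mitosis list was 0.77 to 0.83. The genes most opposed to the module, named after their values were seen, were Krt20 (-0.39), a keratin of differentiated villus cells, and Cdhr5 (-0.35), a cadherin of the brush border.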

How the data were processed

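CEL-seq2 libraries of 7 sorted and 3 picked plates from mouse small-intestinal crypts were read as deposited, 1 table of genes by 384 wells each. Reads were mapped with BWA 0.6.2-r126 to mm10, per the submitters' processing notes. Which program counted, whether it used strand and which wells were dropped is not given in the sources used here. All deposited values, in a unit other than a plain count, are barcode counts corrected for barcodes hit more than once, and every value came out as a whole number of barcodes within 0.001 when that correction was undone. They are called transcripts, were used as deposited and were not put into a count model.

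Wells with at least 1000 endogenous transcripts were used. Class sums needed at least 10 wells of a class in a library. Goblet and absorptive wells had at least 1% of transcripts in a list. Sums were scaled by TMM factors computed here (0.756 to 1.11 over the 10 libraries, 0.825 to 1.12 over class sums), and differences were fitted with limma 3.58.1 in R 4.3.3 (trend) on log2(CPM + 1) for libraries and log2(CPM + 10) for class sums, the latter with the library as block. Benjamini-Hochberg adjustment ran over all genes tested. The script was tested on simulated data. Other steps used Python 3.11.15, numpy 2.4.6 and pandas 2.3.3. Depth was 821829 to 4832581 transcripts per library. Animals are not named in the labels. The p-values therefore rest on the spread from library to library alone, which may be technical, and intervals cover counting error only. Replicates of a group differed by more than counting noise in all 24 pairs.

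The members and lists were chosen with earlier results of these data known. Named members were the 10 with the most transcripts, those called in picked against sorted, the 5 largest changes of each class comparison that held their direction in every library, a short list of well-known members, the 3 highest and lowest by correlation with the other members and the 5 closest pairs, with the 10 non-members most like the module and the 5 called genes of smallest adjusted p in each neighbouring list. Others were named after their values were seen. Alternatives changed scaling, pseudocount, filter, weights, class limits, depth, block and the libraries used.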

Additional observations from a re-analysis of the deposited data

Results flagged for a closer look

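Of 29 groups of values checked, 11 held a library whose gap to its nearest neighbour was large against the whole range of its group, and all 11 were sorted replicate 6. Chance alone marks about 1 group in 20, and these 11 share 1 library and in part the same transcripts. The module took 0.761% of its transcripts, against 0.402% to 0.538% in the other sorted libraries, and 41.7% of its wells had at least 0.5% of module, against 22.2% to 27.1%. In its 17 unclassed wells the module took 1.29%, against 0.522% to 0.801%, and 94.1% of them had at least 0.5%, against 31.4% to 45.8%.

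Among single members, Mki67 was at 556 scaled CPM in this library and Top2a at 563, against 214 to 326 and 208 to 329 in the other sorted libraries. Smc4 was at 380.2 (141 to 236 in the others), Ccna2 at 306 (159 to 218) and Birc5 at 233 (117 to 156). Smc2 was at 184 (79.1 to 119) and Aurkb at 93.8 (44.0 to 60.4). The library was also the deepest, with 4832581 transcripts, and 196 of its 264 used wells were goblet wells. The part of either in these values was not tested.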

How the results depend on the processing

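For picked against sorted, 4 members passed. The count was 7 with library totals as scaling, 2 with precision weights, 11 with the mean CPM per well, 17 with GK5a and 2 with GK5b as the only sorted libraries, and 1 with the GK5a libraries summed into 1. Leaving out 1 library gave 2 (without picked replicate 2) to 15 (without sorted replicate 6). For GK5b against GK5a, 8 passed, 5 with no filter on low genes and 3 with the mean CPM per well. Without sorted replicate 6, which leaves 1 library in GK5b, the median log2 fold change of the members was 0.05. The share of all genes called is not given beside the counts of this paragraph.

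For goblet against Lgr5-positive wells, 22 passed with the library as replicate block and 2 with no replicate block. The count was 41 with sum totals as scaling, 5 with a pseudocount of 1, 44 with the class limits doubled, 13 with at least 2 transcripts of Lgr5, 8 of 51 tested in GK5a alone and 1 of 12 tested after thinning, and 13 to 20 with 1 library left out. For absorptive wells the count was 53, and after thinning 12 of the 12 members that could still be tested. For Atoh1-positive wells it was 0, with 1 under precision weights and 17 for Atoh1-positive wells of any class, where Ccnb1 turned from 0.05 to -0.88 (limma adjusted p = 0.0284). For unclassed wells it was 0, with 5 under precision weights, 1 with at least 2 transcripts of Lgr5 or Atoh1, and 0 to 2 with 1 library left out. The absorptive module share of 0.0316% became 0.211% with the class limits halved and 0.0448% as a mean over wells. Except for the effects of fewer genes or libraries tested, the cause was not tested. For Atoh1-positive wells outside the lists, GK5a alone, thinning and 2 transcripts left too few sums and were not run. The block changed no other count of members. Depth limits what a single well shows: a well of 1000 transcripts at 0.1% of module holds 1 module transcript.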
